A study of Mus musculus with 6 samples.

Results

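The genes described here encode enzymes and transporters of glycolysis, the pyruvate dehydrogenase step and the tricarboxylic acid (TCA) cycle, measured by RNA sequencing in mouse small-intestinal organoids. They are the 34 rows of the deposited count table whose symbol is on a fixed list, out of 24594 rows in all, and all 34 had enough counts to be tested. Organoids are cultured epithelial structures that form crypt-like buds and villus-like regions. All 6 libraries come from organoids grown out of single cells for 96 h. In the next 24 h, 3 samples received NIBR-LTSi at 5 uM, a compound known to inhibit the Hippo pathway kinases LATS1 and LATS2, and 3 received the solvent DMSO alone. The sources used here give no strain, age or genotype of the source mice. The organoids were broken up into single cells before RNA was extracted.

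Glycolysis converts glucose to pyruvate in the cytosol. Pyruvate is then either reduced to lactate and exported, or carried into mitochondria, where pyruvate dehydrogenase turns it into acetyl-CoA for the TCA cycle. Small-intestinal enterocytes also run parts of the pathway in reverse as gluconeogenesis.

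With NIBR-LTSi, 16 of the 34 genes fell, 7 rose and 11 were not called. Over all 12592 tested genes 42% were called at an adjusted p under 0.05, 22.8% higher and 19.2% lower. Among the 34, the shares were 20.6% higher and 47.1% lower. The log2 fold change, called log2 change below, is NIBR-LTSi over DMSO. Its median was -0.10 over the 34 genes and 0.02 over all tested genes. Most changes were small: 21 of the 23 called genes changed by less than 1.5-fold, and the exceptions were Pck1, which fell 1.83-fold, and Pfkfb3, which rose 1.73-fold. In bulk RNA, fewer cells of a type and less RNA per cell cannot be told apart.

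**Figure D1:**
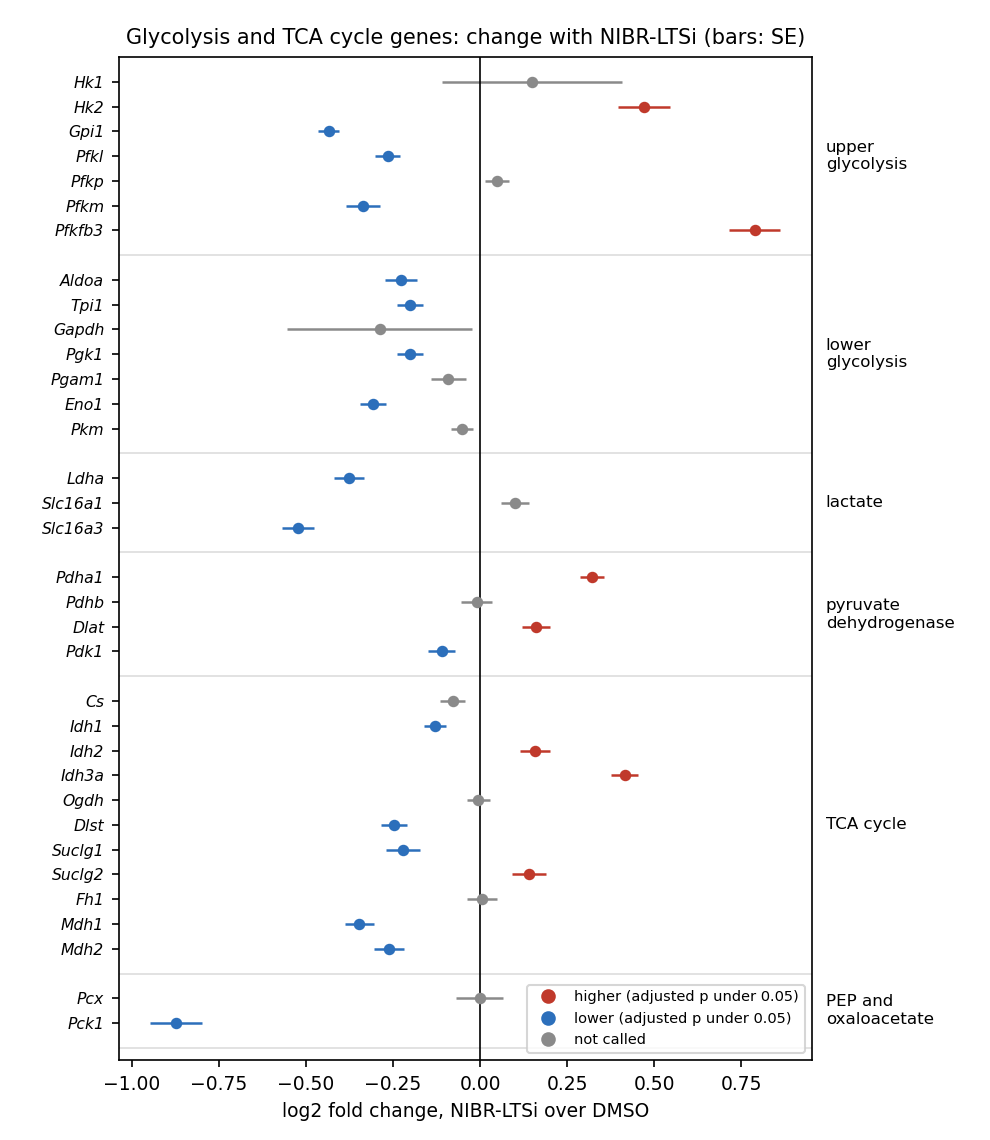
Log2 fold change (x axis, NIBR-LTSi over DMSO) of each of the 34 genes (y axis, in pathway order), with points coloured by call and bars showing 1 standard error. Lower glycolysis and lactate genes lie at or left of 0 apart from Slc16a1, while Pfkfb3 (0.79) and Pck1 (-0.87) are the outermost points.

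Library totals ranged from 18395427 to 26767043 counts, and the smallest count of any of the 34 genes in a library was 247 (Hk2). Markers of intestinal epithelium were abundant: Epcam was between 1107 and 1219 CPM (counts scaled to a common library size) in the 6 libraries. Of 24 markers fixed for fibroblasts, smooth muscle, blood cells, endothelium and neurons, 23 have a row and 7 of these (Dcn, Lum, Des, Cd3e, Cdh5 and Kdr among them) are at 0 in every library. The summed level of the 7 fibroblast markers was 2.28 to 3.40 CPM with DMSO and 1.96 to 2.01 CPM with NIBR-LTSi, nearly all of it Pdgfrb, and that of the blood cell markers was 9.28 to 9.73 and 9.91 to 11.6 CPM, mostly Itgam. Markers within the epithelium moved with the treatment. Of 9 proliferation markers 8 were higher, with a summed level of 469.2 to 502.2 CPM in DMSO and 742.7 to 824.5 CPM in NIBR-LTSi libraries. Of 10 enterocyte markers 4 were higher and 5 lower, and their summed level was 40390 to 41480 CPM with DMSO and 34670 to 37230 CPM with NIBR-LTSi. This sum is weighted towards the most abundant of the markers and does not measure the number of enterocytes. Of the 9 epithelial markers Vil1 and Cdx1 were lower and Krt8, Krt18 and Krt19 higher, and their summed level was 8702 to 8849 CPM with DMSO and 9547 to 10170 CPM with NIBR-LTSi. Markers of rarer epithelial cells also changed in both directions: 1 was higher and 2 lower of 4 tested for stem cells (Olfm4 fell 1.96-fold and Lgr5 1.62-fold), 1 higher and 2 lower of 5 for Paneth cells, 1 higher and 3 lower of 5 for enteroendocrine cells, and 1 higher (Clca1, 3.39-fold) and none lower of 5 for goblet cells. None of 3 tested for tuft cells was called. The part of these shifts in the results below was not tested.

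The genes differed widely in level per kilobase of gene width (CPM per kb), the scale used here to set genes side by side. The deposited widths need not equal the length of the transcripts present, so orders and shares per kilobase depend on them. For example, Pfkp (width 13401) was above Pfkl (width 4672) by counts and below it per kilobase. In DMSO libraries the order began with Mdh2 (971 ± 53 CPM per kb; SD, n = 3), Ldha (710 ± 31), Aldoa (583 ± 35) and Tpi1 (506 ± 10), with no overlap between neighbours among these 4. Idh1 (381 ± 8) and Pkm (378 ± 3) followed and did overlap. At the low end stood Pcx (6.58 ± 0.59), Hk1 (2.49 ± 0.52), Hk2 (2.44 ± 0.17) and Pfkfb3 (1.88 ± 0.13), of which Hk1 and Hk2 overlapped. Both of the genes with the strongest rises relative to DMSO, Pfkfb3 and Hk2, were at this low end.

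The first steps of glycolysis trap glucose as its phosphate and commit it to the pathway. Of the 7 genes of these steps 2 rose, 3 fell and 2 were not called. Pfkfb3 (Entrez 170768; chromosome 2, 11471430 to 11554071), which makes the fructose bisphosphate signal that activates phosphofructokinase, was at 13.1, 14.9 and 14.6 CPM in DMSO replicates 1 to 3 and at 25.1, 25.1 and 23.3 CPM in NIBR-LTSi replicates 1 to 3. The NIBR-LTSi libraries lay well above the DMSO libraries, a log2 change of 0.79 ± 0.07 (SE, adjusted p = 4.94e-06). Per kilobase, Pfkfb3 held only 3.79% of the level of its gene family with DMSO and 6.91% with NIBR-LTSi. The main family member by this measure, Pfkfb4 (75.4% and 67.9%), fell (log2 change -0.24 ± 0.05, adjusted p = 0.00163). Pfkfb2 (19.6% and 23.1%) was not called (adjusted p = 0.298). Hk2 (Entrez 15277; chromosome 6, 82725025 to 82774454), the inducible hexokinase bound to mitochondria, was at 14.3, 13.7 and 15.7 CPM with DMSO and 19.8, 21.0 and 19.9 CPM with NIBR-LTSi. It rose 1.39-fold (log2 change 0.47 ± 0.07, adjusted p = 0.000311), and no library of one group reached the other.

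Gpi1 (Entrez 14751; chromosome 7, 34201327 to 34230336), the isomerase that turns glucose phosphate into fructose phosphate, was at 2127, 2112 and 2088 CPM with DMSO and 1553, 1567 and 1558 CPM with NIBR-LTSi. The libraries of each group were close together and the groups far apart, with a fall of 1.35-fold (log2 change -0.44 ± 0.03, adjusted p = 4.56e-07, the smallest of the 34). Phosphofructokinase, which catalyses the committed step, is built from subunits of 3 genes. The liver-type subunit Pfkl was at 319.9, 322.8 and 321.6 CPM with DMSO and 276.2, 265.9 and 260.4 CPM with NIBR-LTSi (log2 change -0.27 ± 0.04, adjusted p = 0.000102). The muscle-type subunit Pfkm was at 49.8, 50.1 and 48.6 CPM and then 39.5, 38.2 and 39.9 CPM (log2 change -0.34 ± 0.05, adjusted p = 0.000170). Pfkl and Pfkm thus fell without overlap between groups. The platelet-type subunit Pfkp, at 387.7 ± 4.4 and 401.0 ± 9.5 CPM, was not called (log2 change 0.05 ± 0.03, adjusted p = 0.279; 0.0462 when only library totals were used), and its sign turned after an adjustment for gene width (-0.08).

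The hexokinase Hk1 was the least steady of the early genes. It was at 19.6, 17.9 and 26.3 CPM with DMSO and 17.5, 22.6 and 29.9 CPM with NIBR-LTSi (log2 change 0.15 ± 0.26, adjusted p = 0.696). Its groups overlapped, and without NIBR-LTSi replicate 3 the log2 change was -0.09. Per kilobase, neither Hk1 nor Hk2 was the main hexokinase transcript: Hkdc1, a gene of the same family next to Hk1, held 92.5% ± 0.8 of the family's level in DMSO and 91.4% ± 0.9 in NIBR-LTSi libraries. Hkdc1 itself was at 338.1 ± 12.3 and 348.4 ± 9.5 CPM (adjusted p = 0.404).

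In lower glycolysis, from the splitting of fructose bisphosphate to pyruvate, 4 of 7 genes fell, none rose and 3 were not called. Aldoa, the ubiquitous aldolase, was at 1710, 1791 and 1589 CPM with DMSO and 1467, 1498 and 1382 CPM with NIBR-LTSi (log2 change -0.23 ± 0.05, adjusted p = 0.00228). Tpi1, which interconverts the triose phosphates, was at 1103, 1144 and 1107 CPM and then 1008, 977.5 and 930.8 CPM (log2 change -0.20 ± 0.04, adjusted p = 0.00102). In both genes the highest NIBR-LTSi library was below the lowest DMSO library, although the gap was smaller than for Gpi1. Pgk1, a step that yields ATP, was at 425.6, 421.3 and 404.8 CPM with DMSO and 374.6, 352.7 and 362.1 CPM with NIBR-LTSi (log2 change -0.20 ± 0.04, adjusted p = 0.00104). Eno1, which forms phosphoenolpyruvate, was at 637.2, 678.7 and 621.9 CPM and then 529.9, 520.6 and 515.3 CPM, a fall of 1.24-fold (log2 change -0.31 ± 0.04, adjusted p = 5.29e-05). Its named copy Eno1b has a row of its own with fewer counts and was also lower (log2 change -0.24 ± 0.06, adjusted p = 0.00557).

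The other genes of lower glycolysis gave no call. Pkm, the pyruvate kinase gene whose M1 and M2 splice forms these counts do not separate, was at 1900, 1896 and 1874 CPM with DMSO and 1845, 1836 and 1787 CPM with NIBR-LTSi. Its groups did not overlap, but the difference was small (log2 change -0.05 ± 0.03, adjusted p = 0.201; 0.0382 after the width adjustment). Pgam1, phosphoglycerate mutase, was at 103.6 ± 1.5 and 97.3 ± 6.3 CPM (adjusted p = 0.170; 0.0283 without NIBR-LTSi replicate 1, at a log2 change of -0.15 in place of -0.09). Gapdh was at 136.0, 84.6 and 111.2 CPM with DMSO and 68.1, 95.2 and 108.2 CPM with NIBR-LTSi (log2 change -0.29 ± 0.27, adjusted p = 0.451). Its libraries were scattered within both groups, lowest in DMSO replicate 2 and NIBR-LTSi replicate 1. Its level of 43.1 ± 10.02 CPM per kb was below the neighbouring steps Tpi1 (506 ± 10) and Pgk1 (186 ± 5). Copies whose RefSeq symbol is built on that of the gene number 3 for Gapdh, 7 for Tpi1 and 3 for Pgk1. Copies under other symbols were not counted, so these numbers do not rank the genes. The part of any copies in these counts was not tested.

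**Figure D2:**
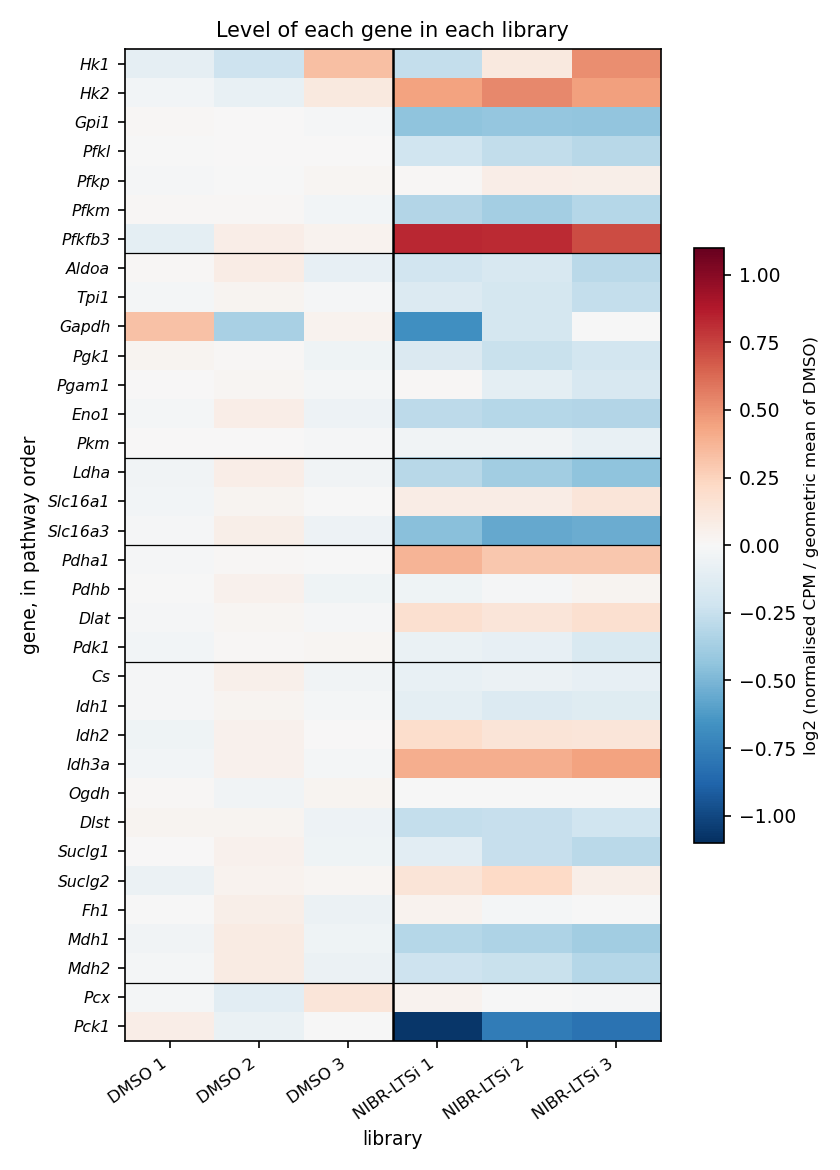
Log2 ratio of the normalised CPM of each gene (rows, in pathway order) in each library (columns) to the geometric mean of the 3 DMSO libraries, on a colour scale from -1.1 to 1.1. The NIBR-LTSi columns are alike for Gpi1, Ldha, Slc16a3 and Idh3a, Pck1 is lowest in NIBR-LTSi replicate 1, and Hk1 and Gapdh vary as much within the groups as between them.

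Of the lactate genes 2 fell and 1 was not called. Ldha (Entrez 16828; chromosome 7, 46842274 to 46855627), which reduces pyruvate to lactate, was at 2294, 2469 and 2291 CPM with DMSO and 1902, 1806 and 1726 CPM with NIBR-LTSi. It fell 1.30-fold with no overlap (log2 change -0.38 ± 0.04, adjusted p = 2.84e-05). Its partner subunit Ldhb had 0 or 1 count in each library, so Ldha accounted for essentially all lactate dehydrogenase transcript of that pair. Slc16a3 (Entrez 80879; chromosome 11, 120948484 to 120959000), the lactate exporter MCT4, was at 171.7, 181.2 and 166.9 CPM with DMSO and 125.8, 117.2 and 118.7 CPM with NIBR-LTSi. This fall of 1.44-fold (log2 change -0.52 ± 0.05, adjusted p = 2.95e-06) was among the 34 genes second in size to that of Pck1. Slc16a1, the transporter MCT1, which carries lactate, ketone bodies and short-chain acids, was at 125.4, 131.4 and 128.2 CPM and then 135.9, 136.0 and 140.9 CPM. These groups did not overlap either, but the rise was not called (log2 change 0.10 ± 0.04, adjusted p = 0.0608; 0.0435 without DMSO replicate 2, 0.0450 with upper-quartile factors and 0.0106 with library totals only). Over all tested genes 52.5% had groups that did not overlap, 28% higher and 24.5% lower. Among the 34 genes 8 were so separated upwards and 18 downwards.

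Pyruvate enters the TCA cycle through the pyruvate dehydrogenase complex, which its kinases inactivate. Of 4 genes here 2 rose, 1 fell and 1 was not called. Pdha1 (Entrez 18597; chromosome X, 160122219 to 160138430), the catalytic alpha subunit that the kinases phosphorylate, was at 358.0, 364.3 and 358.2 CPM with DMSO and 465.4, 443.5 and 441.2 CPM with NIBR-LTSi. It rose 1.25-fold without overlap (log2 change 0.32 ± 0.04, adjusted p = 1.83e-05). Dlat, the acetyltransferase core, was at 102.4, 104.9 and 102.2 CPM and then 116.8, 112.8 and 116.5 CPM (log2 change 0.16 ± 0.04, adjusted p = 0.00642). The beta subunit Pdhb was not called, at 100.5 ± 3.1 and 99.8 ± 2.6 CPM (log2 change -0.01 ± 0.04, adjusted p = 0.875). The kinase Pdk1 was at 212.9, 218.4 and 220.0 CPM with DMSO and 206.0, 204.1 and 193.5 CPM with NIBR-LTSi (log2 change -0.11 ± 0.04, adjusted p = 0.0390). Per kilobase, Pdk2 held more of the kinase level than Pdk1 (54.2% against 36.8% with DMSO). Pdk2 (log2 change -0.24 ± 0.05, adjusted p = 0.00142) and Pdk3 (-0.52 ± 0.08, 0.000278) fell as well. Pdk4, with 0.371% of the level with DMSO, rose (0.97 ± 0.31, 0.0238). The Pdk1 call was lost in 9 of 16 alternatives. These were leaving out DMSO replicate 1 (adjusted p = 0.0688), 2 (0.0732) or 3 (0.0860) or NIBR-LTSi replicate 2 (0.0784) or 3 (0.148), library totals alone (0.164), the replicate block (0.0724), no filter on low counts (0.0589) and upper-quartile factors (0.0521).

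The TCA cycle oxidises acetyl-CoA to carbon dioxide, and Idh1 and the cytosolic Mdh1 are isoenzymes that work outside it. Of these 11 genes 5 fell, 3 rose and 3 were not called. The member that rose most was Idh3a (Entrez 67834; chromosome 9, 54586511 to 54604662), the catalytic subunit of the NAD-dependent isocitrate dehydrogenase of the cycle, at 125.9, 132.2 and 126.7 CPM with DMSO and 168.9, 169.4 and 174.5 CPM with NIBR-LTSi. It rose 1.33-fold (log2 change 0.41 ± 0.04, adjusted p = 5.88e-06), with tight groups far apart. The genes of the other subunits of this enzyme did not rise. Idh3g fell (log2 change -0.15 ± 0.04, adjusted p = 0.0104) and Idh3b was not called (log2 change -0.06 ± 0.04, adjusted p = 0.248). The mitochondrial NADP-dependent Idh2 was at 91.2, 97.4 and 94.2 CPM and then 108.0, 103.7 and 103.5 CPM (log2 change 0.16 ± 0.04, adjusted p = 0.0124). Suclg2, the GTP-forming beta subunit of succinyl-CoA ligase, was at 116.6, 124.8 and 123.8 CPM with DMSO and 134.2, 141.3 and 127.0 CPM with NIBR-LTSi (log2 change 0.14 ± 0.05, adjusted p = 0.0362).

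The calls of Idh2 and Suclg2 were the weaker ones. That of Idh2 was lost in 4 of 16 alternatives: without DMSO replicate 1 (adjusted p = 0.0702), NIBR-LTSi replicate 1 (0.0527) or NIBR-LTSi replicate 2 (0.0549), and in DESeq2 (0.0514). That of Suclg2 was lost in 7: without DMSO replicate 1 (0.166), NIBR-LTSi replicate 1 (0.0839), NIBR-LTSi replicate 2 (0.250) or both DMSO replicate 2 and NIBR-LTSi replicate 1 (0.0577), with DESeq2 (0.0985), DESeq2 size factors (0.0714) and the width adjustment (0.0763).

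Among the genes of this group that fell, Mdh1 (Entrez 17449; chromosome 11, 21556692 to 21571934), the cytosolic arm of the malate shuttle, was at 594.4, 647.0 and 588.8 CPM with DMSO and 490.2, 480.9 and 468.2 CPM with NIBR-LTSi. It fell 1.27-fold (log2 change -0.35 ± 0.04, adjusted p = 3.82e-05), and its mitochondrial counterpart Mdh2, at 2024, 2188 and 1971 CPM and then 1762, 1742 and 1656 CPM, fell 1.2-fold (adjusted p = 0.000454). No NIBR-LTSi library reached the lowest DMSO library in either gene. Dlst, the succinyltransferase of the oxoglutarate dehydrogenase complex, was at 367.9, 367.3 and 345.8 CPM with DMSO and 299.9, 302.8 and 308.6 CPM with NIBR-LTSi (log2 change -0.25 ± 0.04, adjusted p = 0.000239). Suclg1, the alpha subunit shared by both succinyl-CoA ligases, was at 274.3, 284.1 and 264.7 CPM and then 252.9, 229.9 and 223.8 CPM (log2 change -0.22 ± 0.05, adjusted p = 0.00344). The cytosolic Idh1 was at 1049, 1082 and 1040 CPM with DMSO and 980.8, 953.8 and 964.9 CPM with NIBR-LTSi, the smallest of these falls (log2 change -0.13 ± 0.03, adjusted p = 0.00720). Cs, citrate synthase, came closest to the threshold among the rest (602.5 ± 20.5 and 570.4 ± 5.7 CPM, log2 change -0.08 ± 0.04, adjusted p = 0.0931). Ogdh (adjusted p = 0.917) and Fh1 (0.939) differed by less than their standard errors, at log2 changes of -0.01 ± 0.03 and 0.01 ± 0.04, and the sign of each turned in some alternatives.

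Pck1 and Pcx lie on the route from pyruvate back towards glucose. Pck1 (Entrez 18534; chromosome 2, 173153073 to 173159274), the cytosolic phosphoenolpyruvate carboxykinase and a rate-controlling enzyme of gluconeogenesis, was at 89.7, 81.2 and 84.9 CPM with DMSO and 40.7, 50.0 and 48.7 CPM with NIBR-LTSi. Every NIBR-LTSi library was far below every DMSO library, and the fall of 1.83-fold was the largest of the 34 (log2 change -0.87 ± 0.07, adjusted p = 6.34e-06). Pcx, pyruvate carboxylase, which refills the cycle with oxaloacetate, was at 31.3 ± 2.8 and 31.3 ± 0.6 CPM, with a log2 change within its standard error of 0.07 (adjusted p = 0.994).

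Pairs of related genes, mostly isoenzymes, were compared as the log2 ratio of their counts within a library, which does not depend on how libraries are scaled. The pairs also include the beta and alpha subunits Suclg2 and Suclg1 and the transporters Slc16a3 and Slc16a1. In 9 of 12 pairs the ratios of the groups did not overlap. The groups of 52.5% of single tested genes did not overlap either, and no such share was worked out for other pairs of genes. With 3 libraries against 3 the smallest possible exact permutation p is 0.10, which these 9 reached (two-sided; 0.133 after Benjamini-Hochberg adjustment over the 12 pairs), so no pair could pass the threshold. The log2 ratio of Pck2 to Pck1 was -1.08, -1.01 and -1.15 with DMSO and 0.49, 0.09 and 0.15 with NIBR-LTSi, a difference of 1.33. The order of the pair by counts was thus reversed. Per kilobase, Pck1 still held the larger share of the pair, 78.5% ± 0.8 with DMSO and 59.2% ± 3.6 with NIBR-LTSi. The mitochondrial Pck2 rose from 40.3 ± 2.1 to 54.9 ± 2.0 CPM (adjusted p = 5.10e-05).

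The log2 ratio of Pklr, the liver-type pyruvate kinase, to Pkm was 0.12, 0.11 and 0.09 with DMSO and -0.57, -0.55 and -0.53 with NIBR-LTSi. Per kilobase the share of Pkm in pyruvate kinase transcript went from 37.5% ± 0.2 to 48.6% ± 0.4. The log2 ratio of Slc16a3 to Slc16a1 was 0.45, 0.46 and 0.38 and then -0.11, -0.21 and -0.25, so that MCT4 was ahead by counts in every DMSO library and MCT1 in every NIBR-LTSi library. Among phosphofructokinase subunits, the log2 ratio of Pfkp to Pfkl was higher by 0.31 and the share of Pfkp per kilobase was 25.7% ± 0.3 with DMSO and 30.3% ± 1.0 with NIBR-LTSi. In the TCA group the ratio of Idh2 to Idh1 was higher by 0.29 and that of Suclg2 to Suclg1 by 0.36 on the log2 scale, whereas that of Sucla2, the ATP-forming beta subunit, to Suclg2 was lower by 0.30. Mdh2 to Mdh1 was higher by 0.09. The pairs whose groups overlapped were Hk2 to Hk1 (exact permutation p = 0.30, n = 3 per group), Pfkm to Pfkl (exact permutation p = 0.20) and Ldhb to Ldha (exact permutation p = 0.50), the last resting on 0 or 1 Ldhb count per library.

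**Figure D3:**
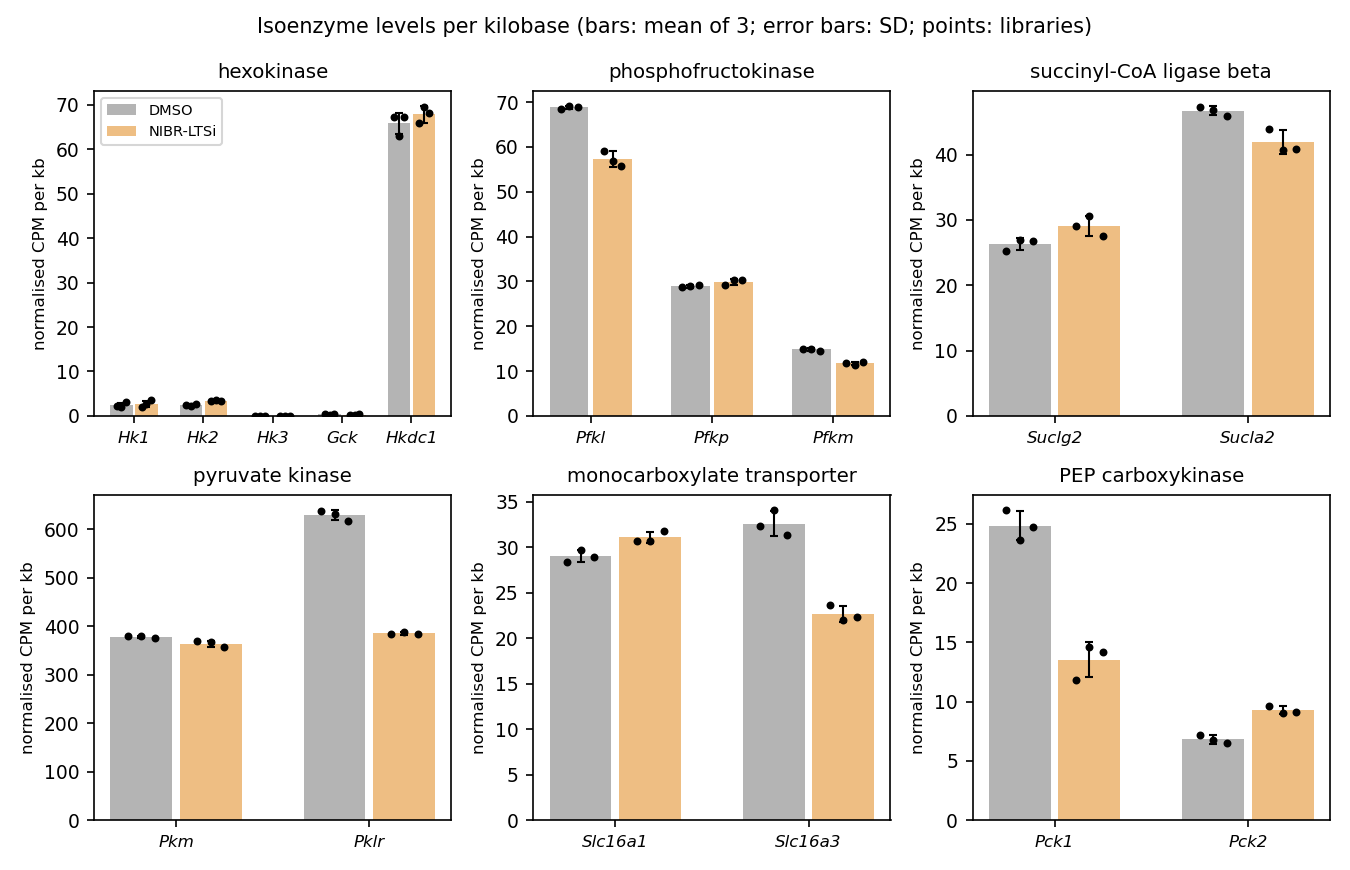
Level per kilobase (y axis, normalised CPM per kb) of the isoenzyme and transporter genes of 6 families in DMSO (grey) and NIBR-LTSi (orange). Each panel has its own scale from 0. Bars are means of 3 libraries, error bars SD and points libraries. Hkdc1 leads its family in both groups, Pklr drops to nearly the level of Pkm, and Slc16a3 goes from above to below Slc16a1.

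A further 60 genes of glycolysis, gluconeogenesis, pyruvate entry, the TCA cycle and exchange with the cytosol were followed as a second list. Of these 57 could be tested (Eno2 is listed at 0, and Hk3 and Ldhb were below the filter), and 29 fell, 8 rose and 20 were not called, at a median log2 change of -0.15. The shares were 50.9% lower and 14.0% higher, against 19.2% and 22.8% of all tested genes. The largest fall was in G6pc, the glucose phosphatase that completes gluconeogenesis, which was at 189.8, 188.0 and 178.2 CPM with DMSO and 71.9, 73.6 and 72.4 CPM with NIBR-LTSi. It fell 2.55-fold (log2 change -1.35 ± 0.04, adjusted p = 9.20e-10). Pklr fell 1.63-fold, Aldoc, the brain-type aldolase, 1.5-fold, Gpd1, the cytosolic glycerol phosphate dehydrogenase, 1.48-fold and Slc5a1, the apical sodium-glucose transporter SGLT1, 1.36-fold. These genes were picked for the smallest p of the list. The falls of the 7 called glycolytic genes among the 34 ranged from 1.15-fold to 1.35-fold.

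In the other direction, Ldhd, the mitochondrial D-lactate dehydrogenase, was at 5.41, 6.89 and 5.01 CPM with DMSO and 14.5, 14.2 and 15.9 CPM with NIBR-LTSi, a rise of 2.60-fold (log2 change 1.38 ± 0.12, adjusted p = 2.23e-06). Pdp1, a phosphatase that reactivates pyruvate dehydrogenase, rose from a low 3.23 ± 0.29 to 6.25 ± 0.55 CPM (log2 change 0.95 ± 0.13, adjusted p = 0.000128). The more abundant phosphatase gene Pdp2, at 52.4 ± 0.6 and 55.5 ± 0.7 CPM, was not called (adjusted p = 0.158). Acly, which splits exported citrate into acetyl-CoA for lipid synthesis, rose 1.30-fold. The remaining rises picked for the smallest p were Pck2, Pfkfb1 (1.60-fold), a relative of Pfkfb3, and the muscle-type enolase Eno3 (1.35-fold, adjusted p = 0.0110, and 0.0879 in DESeq2). By group, 7 of 10 TCA cycle genes and 6 of 11 exchange genes of this list fell, while the 10 genes of pyruvate entry had 3 higher and 3 lower.

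Among regulators of the pathway, 15 genes of the oxygen response were counted. The factor HIF1 induces many glycolytic enzymes when oxygen is low. Of these 15 genes 8 fell (53.3%), 1 rose (6.67%) and 6 were not called, against 19.2% lower and 22.8% higher over all tested genes. Those not called were Arnt, Vhl, Hif1an, Vegfa, Adm and Higd1a, at adjusted p from 0.0640 (Hif1an) to 0.614 (Higd1a). Hif1a, the oxygen-regulated subunit, was at 244.8, 244.9 and 240.0 CPM with DMSO and 185.6, 171.6 and 185.4 CPM with NIBR-LTSi (log2 change -0.43 ± 0.04, adjusted p = 6.34e-06). The hypoxia-induced genes Bnip3, a mitophagy receptor, and Car9, a carbonic anhydrase, fell 1.68-fold and 1.59-fold, and the prolyl hydroxylase gene Egln3 fell 1.25-fold. The gene that rose was Ndrg1 (log2 change 0.11, adjusted p = 0.0179), also hypoxia-induced and named after its value was seen.

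Of 16 other regulators 6 rose (37.5%) and 5 fell (31.2%), against 22.8% and 19.2% of all tested genes. Ppargc1a, which encodes PGC1-alpha, a coactivator of mitochondrial genes, was at 12.8, 13.8 and 14.2 CPM with DMSO and 35.8, 36.3 and 37.9 CPM with NIBR-LTSi. It rose 2.71-fold with a wide gap between the groups (log2 change 1.44 ± 0.06, adjusted p = 1.41e-08). Mycn rose 2.22-fold from 1.12 ± 0.23 CPM, Myc 1.38-fold and Trp53 1.17-fold. Hnf4a (adjusted p = 0.00932) and the bile acid receptor gene Nr1h4 (0.0175) rose 1.1-fold and 1.11-fold. Without DMSO replicate 1 and without NIBR-LTSi replicate 2 these calls were lost (0.0501 and 0.0674 for Hnf4a, 0.0788 and 0.0768 for Nr1h4), Hnf4a also without both DMSO replicate 2 and NIBR-LTSi replicate 1 (0.0525), and Nr1h4 also without NIBR-LTSi replicate 3 (0.0878) and in DESeq2 (0.118). Txnip, a glucose-induced inhibitor of glucose uptake, was at 836.5, 839.8 and 830.5 CPM with DMSO and 431.9, 442.4 and 440.7 CPM with NIBR-LTSi, a fall of 1.91-fold (log2 change -0.93 ± 0.03, adjusted p = 1.55e-09). Creb3l3, an intestinal and hepatic factor of fasting metabolism, fell 1.5-fold. Smaller falls were called for Srebf1 (1.22-fold), Esrra (1.21-fold) and Mlx (1.11-fold). Ppargc1b, a relative of Ppargc1a, was not called (adjusted p = 0.762).

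**Figure D4:**
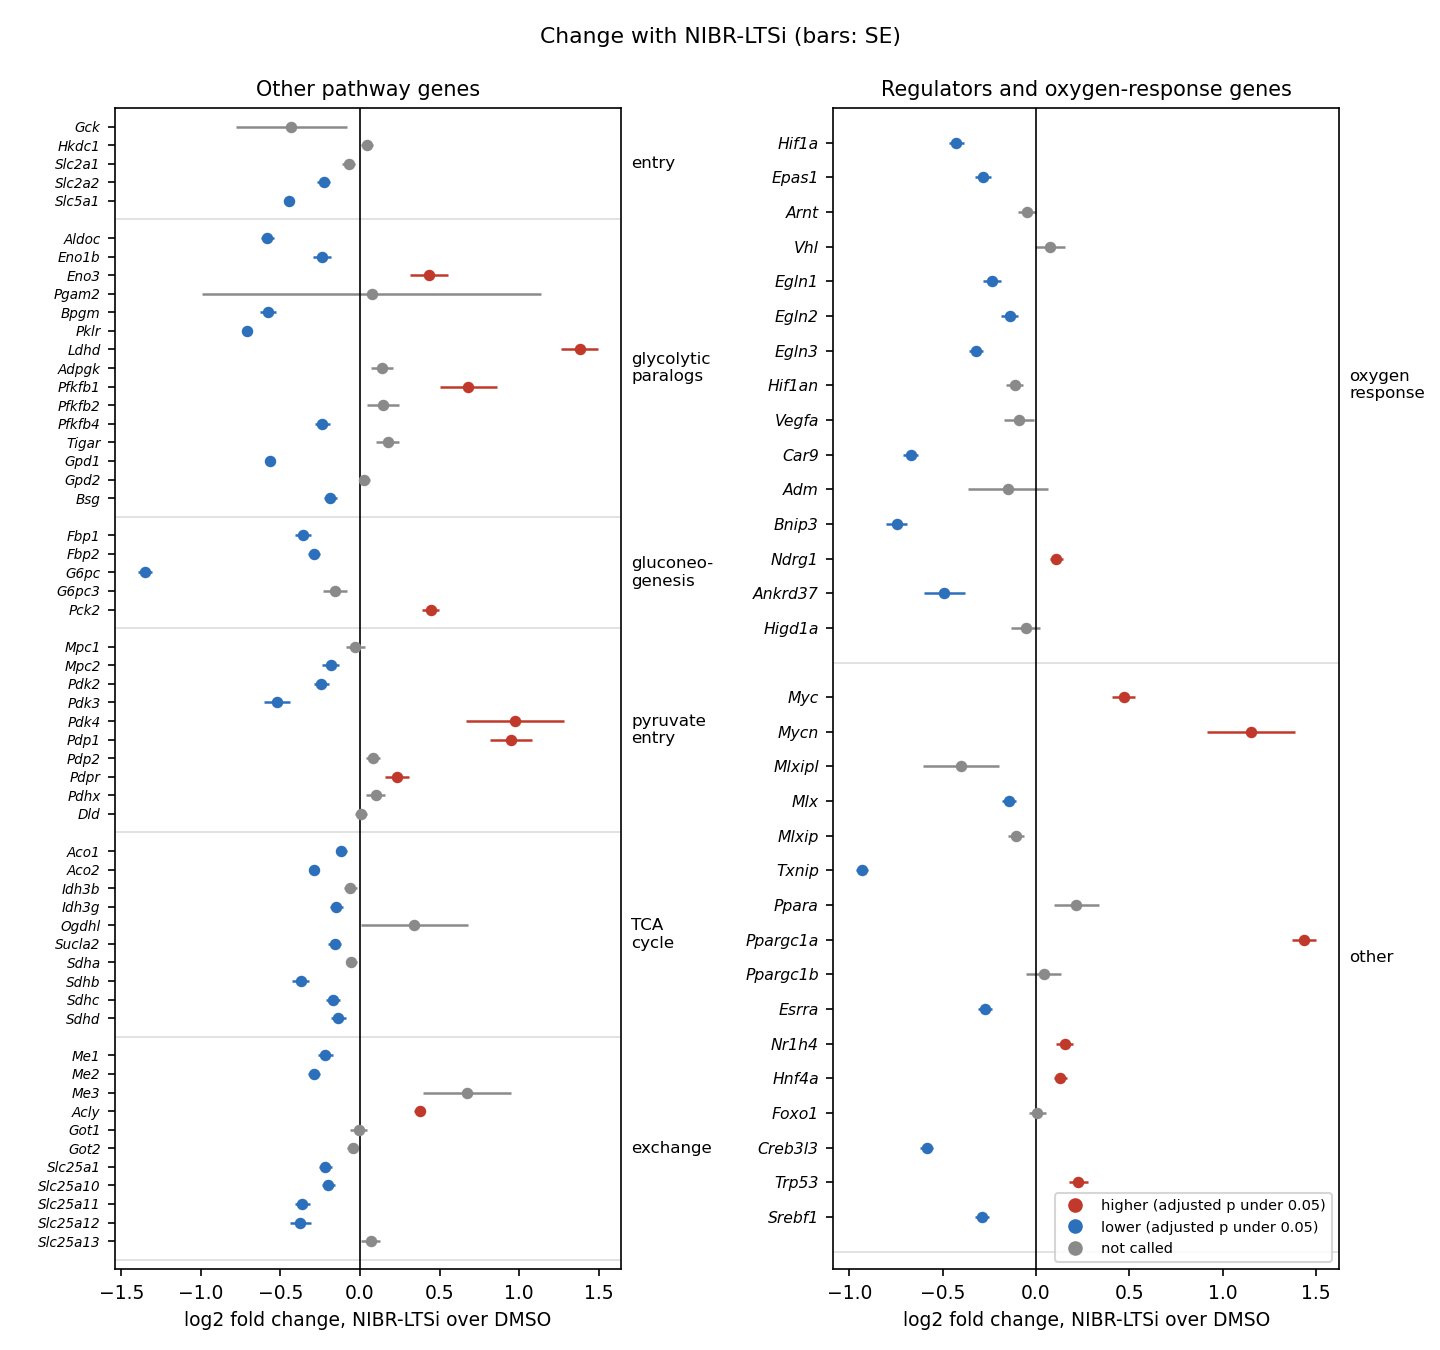
Log2 fold change (x axes, NIBR-LTSi over DMSO; bars show 1 standard error) of 56 of the 57 tested genes of the second pathway list (left) and the 31 regulators (right), coloured by call. G6pc (-1.35) and Ldhd (1.38) bound the left panel, and Txnip (-0.93) and Ppargc1a (1.44) the right.

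The promoters of the 34 genes were read for the core of the HIF binding site, ACGTG, on both strands of the 250 bases before each start in the RefSeq promoter set of GRCm38.p6, to which mm10 corresponds. An entry was found for 33 of the 34 genes, with 52 starts. The letters occur before at least 1 start in 14 of the 33 genes, and in 18.5% of all 27025 genes of the table (16.6% of 32851 windows). By call, they occur in 6 of 16 genes that fell, 2 of 6 that rose and 6 of 11 not called. The 33 genes have more starts per gene than the table as a whole, which gives them more windows in which letters can occur. The table also takes in genes without a count in these libraries. The shares of genes given here and below are thus not like for like, and no share per window was worked out for the 33 genes. A palindromic CACGTG, the E-box, contains the core on both strands and occurs in 6 of the 33 genes and in 6.86% of all genes. The TEAD core GGAATG, bound by the partners of YAP, occurs in 2 of the 33 (Aldoa and Eno1, which both fell) and in 14.4% of all genes. Such letters are a description of the sequence and show no binding. Stretches around the core nearest to a start are printed for the called genes in which they touch no annotated exon (not Mdh1 and Slc16a3, which also hold the core), so that genes that fell can be read beside genes that rose. Capitals mark the core or its reverse complement, merged where they overlap.
Ldha: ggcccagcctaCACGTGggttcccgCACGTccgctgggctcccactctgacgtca
Pgk1: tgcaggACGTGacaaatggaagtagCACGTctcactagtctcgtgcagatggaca
Aldoa: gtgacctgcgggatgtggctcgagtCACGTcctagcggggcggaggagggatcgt
Pfkm: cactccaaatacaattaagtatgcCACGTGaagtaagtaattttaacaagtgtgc
Hk2: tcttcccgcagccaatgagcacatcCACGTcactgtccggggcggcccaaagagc
Pfkfb3: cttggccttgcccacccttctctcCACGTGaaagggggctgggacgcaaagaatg

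These lie at chr7:46845745-46845799 on the plus strand (Ldha), chrX:106186944-106186998 on the plus strand (Pgk1), chr7:126799351-126799405 on the minus strand (Aldoa), chr15:98092429-98092483 on the plus strand (Pfkm), chr6:82774477-82774531 on the minus strand (Hk2) and chr2:11502113-11502167 on the minus strand (Pfkfb3). The Ldha stretch holds an E-box and a second core, and the Pgk1 stretch holds 2 cores, whereas those of Aldoa and Hk2 hold 1 core each. The stretches of Ldha, Aldoa and Pfkfb3 lie inside the span of their gene, before an internal start. These genes have 2, 3 and 2 starts in the promoter set, and which starts the organoids use was not tested. The core thus stands before a listed start of genes that fell (Ldha, Pgk1, Aldoa and Pfkm). It also stands before one of the 2 genes of the list that rose in glycolysis (Hk2 and Pfkfb3).

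The gene that fell most, Pck1, has no HIF core in its window but holds the letters TGACGT, the core of the cAMP response element bound by CREB-family factors, once on the reverse strand. They occur in 8 of the 33 genes and in 7.29% of all genes of the table, both strands counted. In the stretch below, at chr2:173152957-173153012 on the plus strand, capitals mark that core.
Pck1: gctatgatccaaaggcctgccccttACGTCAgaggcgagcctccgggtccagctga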

How the data were processed

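RNA was sequenced from 6 organoid libraries, 3 per group. Per the labels' protocols, 200 ng of total RNA per sample entered a stranded Illumina messenger RNA kit. Raw read counts per gene, with a gene width, were deposited by the authors. The submitters' processing notes name mm10 and edgeR. The sources used here do not name the aligner, the counter or its strand setting. Of the 34 genes, 14 overlap another RefSeq gene. Gapdh, Pgam1, Ldha, Tpi1, Aldoa, Pgk1, Gpi1 and Eno1 have copies named after them, whose sequences were not compared. The counts of all these genes are uncertain where reads were split.

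Counts were filtered with filterByExpr, scaled with TMM factors and tested with the edgeR 4.0.16 quasi-likelihood test (R 4.3.3; limma 3.58.1 and DESeq2 1.42.0 for alternatives), two-sided, fitted on group alone, with Benjamini-Hochberg adjustment over all 12592 tested genes. CPM values use the TMM-scaled library sizes. The SE was taken as the size of the log2 change over the root of its F statistic. Ratios of gene pairs used counts plus 0.5. Nothing in the labels says that replicates came from separate cultures. The p-values therefore reflect the spread of these libraries alone, which may be technical. No libraries agreed within sampling noise (chi-square per degree of freedom of at least 4.65 within groups). The members, the lists, the motifs and the rule for named genes were chosen with earlier results of these data known. Every called member is given for every library, and other genes are mainly the 6 with the smallest p per direction and list. Some genes of the lists, which stay in the counts, are not reported here by name or drawn. Alternatives were other scalings, tests, filters, a gene width adjustment, a replicate block and leaving out each library. Leaving out both DMSO replicate 2 and NIBR-LTSi replicate 1 was chosen after seeing that these deviated together (correlation of deviations 0.528). DMSO replicate 3 and NIBR-LTSi replicate 3 did so as well (0.562) and were not left out together.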

Additional observations from a re-analysis of the deposited data

How the results depend on the processing

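Over 16 alternatives, 20 of the 23 called members kept direction and call, none changed sign, and Pdk1, Idh2 and Suclg2 lost the call in some. The number of members called higher ranged from 5 to 8 and lower from 15 to 17 when 1 library was left out, and all called genes numbered 4212 to 5105. The median log2 fold change of the members was -0.0564 with library totals only, where the median of all tested genes moved alike, from 0.0182 to 0.0632, -0.136 without both DMSO replicate 2 and NIBR-LTSi replicate 1, and -0.1339 to -0.0883 with 1 library left out. For the settings that leave out libraries the cause was not tested. Among the members, signs turned only in those that were not called. Fh1 was at -0.0129 in DESeq2 and with DESeq2 size factors. Ogdh was at 0.00278 and Pcx at 0.00738 with upper-quartile factors, and Pdhb, Ogdh and Pcx at 0.0348, 0.0393 and 0.0438 with library totals only. Pcx was at 0.00238 under the replicate block and 0.00293 when low counts were not filtered. Pfkp was at -0.0774 after the width adjustment, and Pdhb at 0.0156 without both libraries named above. Leaving out 1 library gave -0.0863 to 0.328 for Hk1, -0.0246 to 0.0354 for Fh1, -0.0253 to 0.00795 for Ogdh, -0.0536 to 0.0689 for Pcx, -0.0382 to 0.0118 for Pdhb and -0.218 to 0.784 for the Ldhb to Ldha ratio, which rests on 0 or 1 Ldhb count. Between libraries of the same replicate number the correlations of the deviations were 0.0482, -0.296 and 0.562 for replicates 1 to 3. They differ in sign, and deviations from a mean of 3 libraries cannot settle whether the numbers mark pairs. With the replicate block 7 members were higher and 15 lower, and 4945 genes were called in all. Among the called genes named here depth was lowest for Mycn, at 19 to 78 counts per library, which limits the precision of its fold.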
